A study of Mus musculus with 3 samples.

Results

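The genes described here encode the solute carriers that move iron, zinc, copper and magnesium across cell membranes. They were chosen by name, as the genes of the Slc11, Slc30, Slc31, Slc39, Slc40 and Slc41 families, and 32 of the 24411 genes tabulated belonged to them: 2 of Slc11, 1 of Slc40, 2 of Slc31, 10 of Slc30, 14 of Slc39 and 3 of Slc41. The 3 RNA sequencing libraries, replicates 1 to 3, formed 1 group. They came from preparations of microglia, the macrophages that reside in the brain, from C57BL/6J mice labelled cKO and Pu.1 inhibitor. According to the series design, cKO denotes Mir137loxP/loxP;Tmem119-CreERT2 mice, in which tamoxifen switches on a Cre recombinase expressed from the microglial gene Tmem119 and so removes the microRNA gene Mir137. Mice aged 7 to 8 weeks received tamoxifen daily for 7 days, while the sample labels named brain as tissue and gave an age of 6 to 8 weeks. The design mentioned 4 mice without saying which animal went into which library. The inhibitor was named by its target alone, the macrophage transcription factor Pu.1, with no dose or route. Control microglia were not analysed here, so the values are levels in cell preparations from deleted, inhibitor-treated mice, and neither treatment effect could be measured. Whether the replicates were separate animals is not stated, so the spread between these libraries may be technical, and p-values apply to these libraries alone.

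Cells keep metals within narrow limits because iron, copper and zinc are enzyme cofactors that become toxic in excess. ZIP transporters (Slc39) carry zinc into the cytosol from outside the cell or from organelles, and ZnT transporters (Slc30) carry it out again, to the outside or into organelles. Macrophages also take up iron from engulfed cells, return it to the body through ferroportin (Slc40a1), and withdraw metals from the phagosome through Slc11a1, a defence against engulfed microbes.

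The libraries held 15710750 to 17180404 estimated counts, and the 32 genes together took 0.228 ± 0.0024% of them (SD, n = 3). A count of 0 allows a level of up to 0.175 to 0.191 CPM (counts scaled to library size), the worth of 3 counts, and this limit covers counting error only. All 12 homeostatic microglial markers examined, P2ry12, Tmem119 and Sall1 among them, were detected, with a summed level of 14521 to 15202 FPKM (fragments scaled to library size and transcript length). Markers of other cells were present as well: all 8 neutrophil markers were detected, summing to 13730 to 15194 FPKM, all 7 of choroid plexus and ependyma (6280 to 7160), all 7 endothelial (1976 to 2163), all 6 of blood monocytes (577 to 660), all 8 of border-associated macrophages (343 to 379), all 7 of oligodendrocytes (293 to 350) and all 7 of astrocytes (170 to 191). Of 8 neuronal markers 3 were detected (19.2 to 21.9 FPKM summed) and of 6 red blood cell markers 3 (237 to 319), and no marker was at 0 in all 3 libraries. How much of each transporter level these cells contributed was not tested, and in bulk RNA fewer cells of a type and less RNA per cell cannot be told apart.

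Most of the metal transporter genes were expressed. Detection, defined as 1 FPKM or more in every library, was reached by 25 of the 32 genes, or 78.1%, where 47.8% of all genes tabulated and 54.5% of the 312 other Slc genes reached it. A level of at least 10 FPKM in every library was held by 17 of the 32 (53.1%), against 26.7% of all genes and 31.4% of the other Slc genes, and a level of at least 100 FPKM by 1 (3.12%), against 2.94% and 1.6%. These shares describe genes picked by family name, and no test was made of them. The median of log2(FPKM + 1) over the 32 genes was 3.72 ± 0.06 (SD, n = 3), beside 0.95 ± 0.02 over all genes, and the median over the 25 detected was 4.40 ± 0.04, beside 3.82 ± 0.0031 over all 11680 detected genes.

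**Figure D1:**
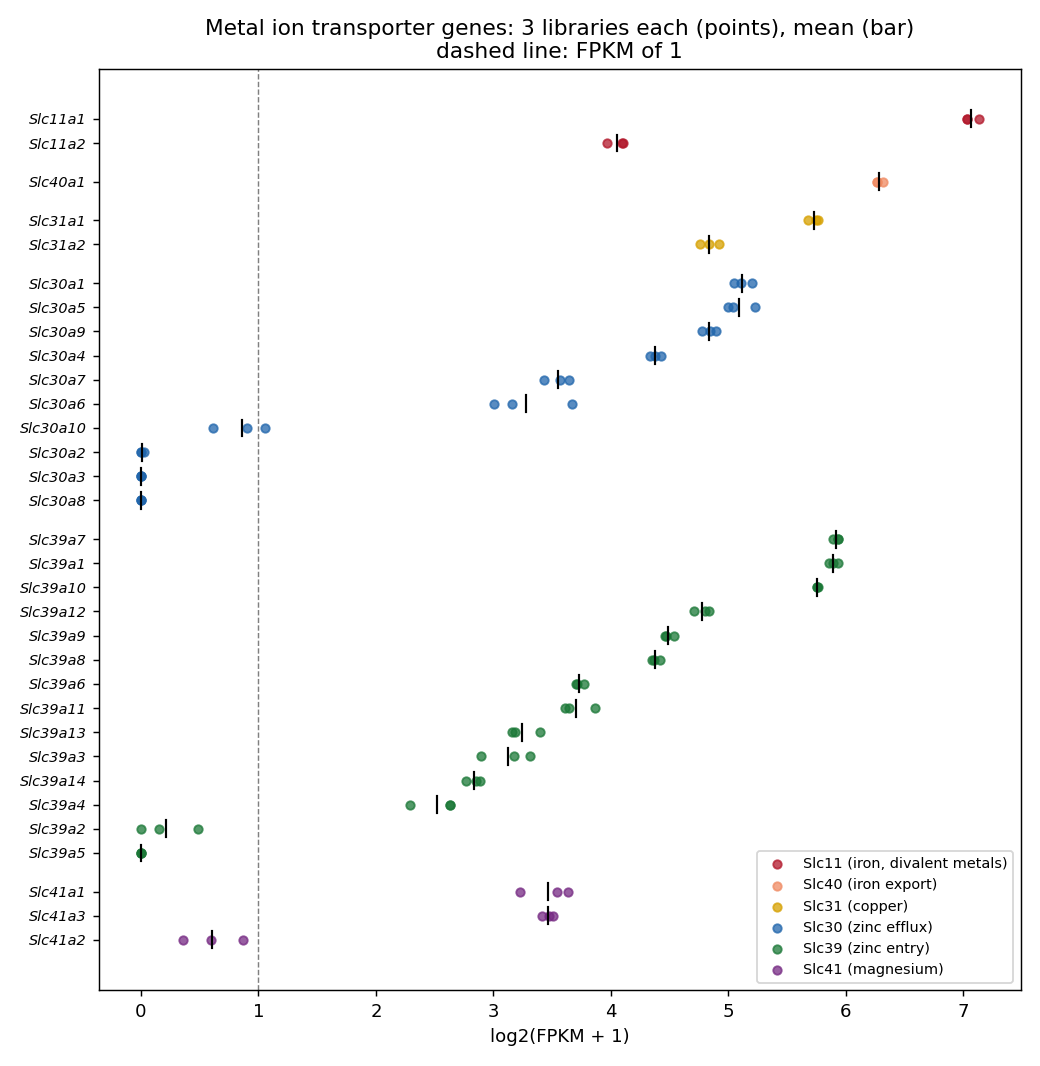
Level of each of the 32 metal transporter genes as log2(FPKM + 1) on the horizontal axis, 1 row per gene grouped by family, with a point for each of the 3 libraries and a bar at their mean. Slc11a1 lies farthest to the right at a mean of 132.71 FPKM, and 7 genes have at least 1 library to the left of the dashed line at an FPKM of 1.

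Iron genes held the 2 highest levels. Slc11a1 (ENSMUSG00000026177.11, GRCm38 chromosome 1, 74375195 to 74386062, plus strand) encodes NRAMP1, a proton-coupled pump of the late endosome and phagosome membrane. It stood at 139.03, 129.46 and 129.64 FPKM in replicates 1, 2 and 3, a mean of 132.71 ± 5.47 (SD, n = 3), higher than 97.8% of all genes tabulated. Replicate 1 was the highest, and the highest value of any other metal transporter gene in any library was 78.72 FPKM, for Slc40a1. C57BL/6 mice are known to carry a loss-of-function allele of Slc11a1, so that a transcript level does not report transport. Neutrophils, whose markers were abundant in these libraries, also express the gene.

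Slc40a1 (ENSMUSG00000025993.10, chromosome 1, 45908068 to 45926523, minus strand) encodes ferroportin, the exporter that releases iron from the cell. It was at 75.75, 75.98 and 78.72 FPKM, a mean of 76.82 ± 1.65 (SD, n = 3), and its range overlapped neither that of Slc11a1 above it nor that of the next gene below. Slc11a2 (ENSMUSG00000023030.16, chromosome 15, 100387898 to 100425072, minus strand), whose product DMT1 brings ferrous iron into the cytosol from outside and from endosomes, was much lower, at 16.10, 16.19 and 14.60 FPKM. Within a library Slc11a1 exceeded Slc11a2 by 8.50 ± 0.46 times and Slc40a1 exceeded Slc11a2 by 4.93 ± 0.40 times in FPKM (SD, n = 3). On the log2(FPKM + 1) scale the differences were 3.01 ± 0.07 and 2.23 ± 0.11, in the same direction in 3 of 3 libraries. Flipping signs in an exact permutation test, two-sided, gave p = 0.25 for each, the smallest that 3 libraries allow, so no such difference could pass 0.05.

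Ferroportin mRNA carries an iron-responsive element, a short hairpin to which iron regulatory proteins bind, and the letters are shown because the same element links it to ferritin, the iron store. The pattern searched in GENCODE M21 transcripts was a loop of 6 bases, CAGTG or CAGAG followed by any base but G, closed by 5 base pairs (G-U allowed), then an unpaired C on the 5′ side and 2 more pairs. It was found in the 5′ untranslated region of 1 of the 32 genes, Slc40a1, and in that of 8 of 19994 genes in all (0.04%). Capitals mark the loop:
Slc40a1: acttcagctaCAGTGTtagctaagtt
Fth1: cctgcttcaaCAGTGCttgaacggaa
Ftl1: cttgcttcaaCAGTGTttgaacggaa
The Slc40a1 hairpin lies at chr1:45925466-45925491 on the minus strand, that of Fth1 at chr19:9982734-9982759 on the plus strand and that of Ftl1 at chr7:45459780-45459805 on the minus strand (GRCm38). The 2 ferritin genes were far above ferroportin, Fth1 at 3073 ± 81.7 and Ftl1 at 1719 ± 139 FPKM. Tfrc, the transferrin receptor through which most cells take up iron, held 5 matches in its 3′ untranslated region and stood at 21.68 ± 0.73 FPKM. In Slc11a2 this strict pattern gave no match in the transcript searched, which says only that these letters were not in that window.

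Both copper genes were detected. Slc31a1 (ENSMUSG00000066150.12, chromosome 4, 62360727 to 62391769, plus strand) encodes CTR1, the high-affinity copper importer, and was at 50.14, 52.58 and 53.17 FPKM. Slc31a2 (ENSMUSG00000066152.11, chromosome 4, 62262562 to 62298411, plus strand), its relative of endosomes and lysosomes, lies 62.3 kb away on the same strand and was at 29.31, 27.53 and 26.09 FPKM. Their ranges did not overlap, and Slc31a1 exceeded Slc31a2 by 1.89 ± 0.16 times (SD, n = 3). Slc31a2 minus Slc31a1 was -0.89 ± 0.12 on the log2(FPKM + 1) scale, with p = 0.25 by the same exact permutation test. With CPM, which is not divided by length, it was -2.04.

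Among the genes for zinc entry, 12 of 14 were detected and 3 took most of the level. Slc39a7, which releases zinc from the endoplasmic reticulum and Golgi, was at 59.99, 58.45 and 59.91 FPKM. Slc39a1, an importer of the plasma membrane, was at 58.38, 60.03 and 57.00 FPKM, and the ranges of the 2 genes overlapped. Slc39a10, a plasma membrane importer, was at 52.86, 53.42 and 53.07 FPKM, a standard deviation of 0.53% of the mean, the smallest of the 25 detected genes. These 3 genes made up 58.9 ± 0.31% of the FPKM summed over the family (SD, n = 3).

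A middle group of zinc entry genes had means from 12.07 to 26.48 FPKM. Slc39a12 was at 26.85, 27.47 and 25.11 FPKM, Slc39a9, a transporter of the Golgi, at 21.46 ± 0.67, and Slc39a8, which also carries manganese, at 19.80 ± 0.52 (SD, n = 3). Slc39a6, a close relative of Slc39a10 whose product pairs with it, was at 12.26 ± 0.36 FPKM, and Slc39a10 exceeded it by 4.34 ± 0.14 times. Slc39a11 was at 12.07 ± 1.28 FPKM.

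Lower but detected were Slc39a13, a transporter of the early secretory pathway, at 8.51 ± 0.87, Slc39a3, a plasma membrane importer, at 7.80 ± 1.27, Slc39a14, which takes up iron and manganese as well as zinc, at 6.13 ± 0.29, and Slc39a4, known for zinc absorption in the intestine, at 4.75 ± 0.74 FPKM (SD, n = 3). Slc39a8 exceeded Slc39a14, its nearest counterpart for manganese, by 3.24 ± 0.23 times. Slc39a2 had 4, 13 and 0 counts in replicates 1, 2 and 3. Slc39a5 had 0 counts in each library.

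Of the 10 genes for zinc efflux, 6 were detected, at lower levels than the leading entry genes. Slc30a1, the exporter of the plasma membrane, was at 33.46, 32.04 and 35.70 FPKM, and Slc30a5 at 36.51, 30.92 and 31.95. The ranges of these 2 overlapped, and both stayed below every library of Slc39a7, Slc39a1 and Slc39a10. Slc30a9, which exports zinc from mitochondria, was at 27.57 ± 1.23 FPKM, and the 3 together made up 70.1 ± 1.57% of the FPKM of the family (SD, n = 3).

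Slc30a4, of endosomal vesicles, followed at 19.78 ± 0.69 FPKM, and Slc30a7, of the Golgi, at 10.71 ± 0.89 (SD, n = 3). Slc30a6, whose product forms the early secretory pathway transporter together with that of Slc30a5, was at 7.04, 11.72 and 7.92 FPKM. Replicate 2 stood above the other libraries, and the ratio of Slc30a5 to Slc30a6 was 5.19, 2.64 and 4.03 in replicates 1, 2 and 3. The 4 genes not detected were Slc30a10, a manganese exporter, at 1.08, 0.53 and 0.87 FPKM, Slc30a2 with 1, 0 and 0 counts, and Slc30a3 and Slc30a8 with 0 counts in each library. Slc30a3 loads zinc into synaptic vesicles and Slc30a8 into insulin granules.

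Summed over each family, the zinc entry genes exceeded the zinc efflux genes. The Slc39 sum was 289.15, 293.29 and 288.96 FPKM and the Slc30 sum 136.34, 130.40 and 137.22 FPKM, so the 2 sets of sums did not overlap. The ratio was 2.16 ± 0.08, and its log2 was 1.11 ± 0.05 (SD, n = 3). The families differ in size, 14 genes against 10: per measured gene the log2 ratio was 0.62, and with TMM-normalised CPM, which is not divided by length, it was 0.62 as well. The family medians of log2(FPKM + 1) were closer, 3.72 ± 0.06 for Slc39 and 3.41 ± 0.13 for Slc30, and their order turned with CPM, at 5.23 and 5.28, and in FPKM over detected genes alone, at 4.08 and 4.61. Summed transcript levels are not transport rates, since the proteins sit in different membranes.

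**Figure D2:**
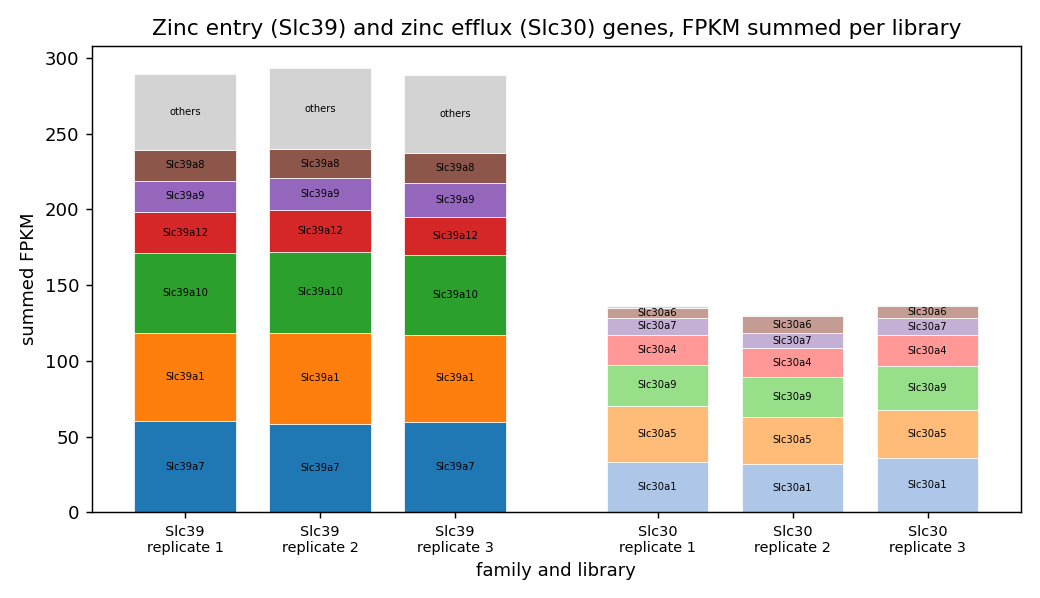
FPKM summed over the Slc39 genes (left) and the Slc30 genes (right), 1 bar per library with the 6 highest genes of each family as segments and the remaining ones in grey. The Slc39 bars reach 288.96 to 293.29 and the Slc30 bars 130.40 to 137.22 FPKM.

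Magnesium transporter genes were the lowest family by sum, at 20.71 ± 1.98 FPKM (SD, n = 3). Slc41a1, a sodium-dependent magnesium exporter of the plasma membrane, was at 8.36, 10.61 and 11.39 FPKM, and Slc41a3, a mitochondrial magnesium exporter, at 9.63, 10.40 and 10.12, so that their ranges overlapped. Slc41a2 was not detected, at 0.51, 0.28 and 0.83 FPKM. Of 12 other genes listed here under magnesium transport, a role not tested in these data, 10 were detected. Tusc3 was at 56.20 ± 2.50, Magt1 at 39.82 ± 0.47 and Nipa2 at 31.94 ± 1.86 FPKM, and the lowest, Cnnm1, at 0.01 ± 0.017 (SD, n = 3).

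Ordered by mean FPKM, 11 of the 24 neighbouring pairs among the 25 detected genes had ranges that did not overlap. The first 2 places were separate from each other and from the rest, while the places from Slc39a6 (12.26) down to Slc39a3 (7.80 FPKM) formed a run of 8 genes with no separate neighbours. Length matters to this order: Slc39a10 was at rank 5 among the genes by FPKM and at rank 2 by CPM, and Slc31a2 at rank 9 and 18.

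Other genes that handle the same metals were read beside the transporters. Of 21 measured genes of iron uptake, storage and release 19 were detected, with a median log2(FPKM + 1) of 4.80 ± 0.03. Fth1 and Ftl1 led, Lcn2, a siderophore-binding protein of neutrophil granules, followed at 424 ± 15.1 FPKM, and Hamp2, a relative of the hepcidin gene Hamp, had 0 in each library. Hamp, whose product hepcidin is the hormone that blocks ferroportin, was at 1.01, 0 and 0 FPKM. Among 5 other genes of zinc handling 4 were detected. The metallothioneins Mt1 and Mt2, small proteins that bind zinc, were at 427 ± 7.88 and 117 ± 4.52 FPKM, Mt3 at 13.91 ± 0.35 and the zinc exporter gene Tmem163 at 0.19 ± 0.10.

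Of 11 copper genes 10 were detected (median 3.57 ± 0.18), led by the copper chaperone Atox1 at 273 ± 28.8, Sod1, a copper and zinc enzyme, at 179 ± 19.3 and the mitochondrial chaperone Cox17 at 53.12 ± 0.94 FPKM. The copper pump Atp7a was at 18.02 ± 1.05, while its relative Atp7b was the lowest at 0.18 ± 0.07 FPKM. Mtf1, the gene of the zinc sensor MTF1, is counted among both the copper and the zinc genes, at 4.83 ± 0.23 FPKM. All 4 further genes listed here under manganese transport, a role not tested in these data, were detected. Atp2c1 was at 66.00 ± 0.83, Atp13a2 at 41.74 ± 2.35, Tmem165 at 28.92 ± 1.38 and Atp13a1 at 28.11 ± 1.45 FPKM. The 8 genes of the phagosomal oxidase and host defence, which act in the compartment of Slc11a1, were all detected, with Cyba at 411 ± 25.1, Ncf1 at 223 ± 11.5, Ltf at 93.59 ± 5.83 and the lowest, Mpo, at 11.67 ± 1.47 FPKM. Ltf and Mpo are neutrophil granule genes, and Ltf is also among the neutrophil markers above.

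**Figure D3:**
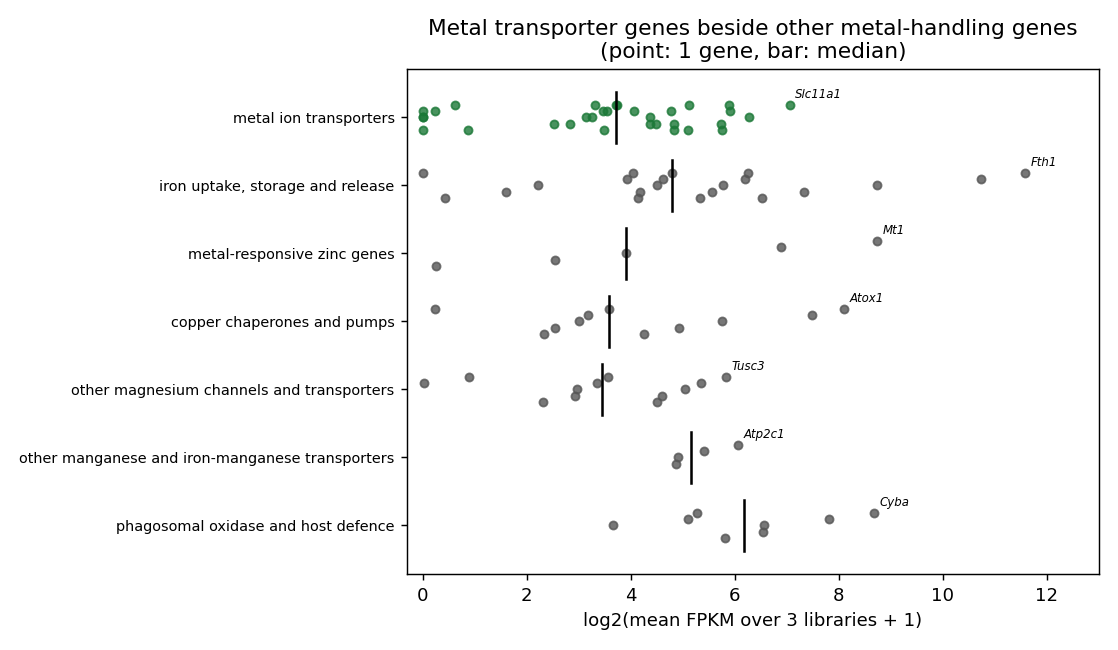
Mean FPKM over the 3 libraries as log2(mean FPKM + 1) for the 32 metal transporter genes (top row) and for 6 lists of other genes of metal handling and phagosomal defence, with 1 point per gene and a bar at the median of each list. The highest gene of each row is named. Fth1 at 3073 FPKM lies well to the right of Slc11a1 at 132.71, the highest transporter.

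The libraries were then compared with each other. Homogeneity of each gene across libraries was tested by chi-square, with Benjamini-Hochberg adjustment over all 13246 genes kept by the expression filter of edgeR. It called 10 of the 27 transporter genes kept (37.0%), close to the 41.4% called over all genes, so this count is no result about the transporters. The other 5 genes had too few counts to be kept. The test sets the difference between libraries against counting error alone, so a call does not show more than the usual spread between separate libraries. The strongest calls were Slc30a6, at 227, 345 and 243 counts (adjusted p = 1.9e-08), Slc41a1, at 629, 730 and 816 (adjusted p = 3.54e-07), and Slc30a5, at 1818, 1407 and 1515 (adjusted p = 3.13e-05). Slc39a3, Slc30a7, Slc41a2, Slc30a10, Slc11a1, Slc30a1 and Slc39a11 followed, with adjusted p from 0.000162 to 0.0154. Each of the 10 calls was lost when 1 or another library was left out, with adjusted p from 0.0726 to 0.962 in those fits. Without replicate 1 there were 6 calls (22.2% of the 27 genes, beside 28.2% of all genes), without replicate 2 there were 4 (14.8% beside 18.6%) and without replicate 3 there were 8 (29.6% beside 23.5%).

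In size these differences were small for most genes. The standard deviation of FPKM was 0.533 to 27.97% of the mean over the 25 detected genes, with a median of 4.62%, and 6 genes were above 10%, Slc30a6 at the top. The biological coefficient of variation, the spread beyond counting error that edgeR estimates per gene, had a median of 0.063 over the 27 genes and 0.087 over all genes kept. Over the 8955 genes within the CPM range of the detected transporters (9.24 to 268) the median was 0.073.

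**Figure D4:**
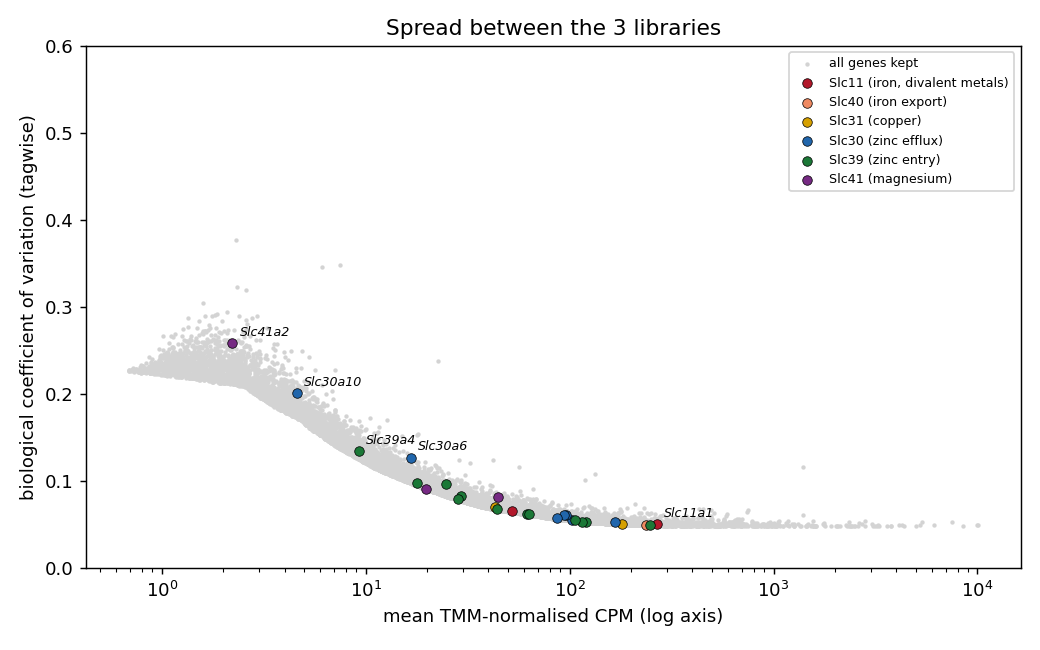
Biological coefficient of variation per gene against mean TMM-normalised CPM (log axis) for all 13246 genes kept in grey and the 27 transporter genes kept in colour by family. The coefficient falls with expression for all genes, and the transporter genes follow that band, from Slc41a2 at 0.26 to Slc39a10 at 0.049.

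The promoters of these genes were read for sites of the factor that the inhibitor targets and of the zinc sensor MTF1. RefSeq windows of 300 bases (GRCm38.p6, 250 before and 50 after the annotated start) were at hand for 26 of the 32 genes, in 31 windows. The Pu.1 core GAGGAA, on either strand, was in 8 of the 31 windows (25.8%), in 28.3% of all 32851 windows and in 27.4% of the 11514 windows of detected genes. The metal response element core, TGCACNC or TGCGCNC on either strand, was in 16 of 31 (51.6%), in 25.7% of all windows and in 35.3% of those of detected genes. Those 16 windows belong to 15 genes. The 31 windows include some of undetected transporter genes, such as Slc30a2, Slc30a3 and Slc39a5, so their shares are not like for like with those of detected genes. A match is a description of the sequence, not a site of binding.

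Slc11a1 is shown as the highest gene and Slc30a1 as the zinc exporter known to be induced by zinc through MTF1. In the first, capitals mark the Pu.1 core, 152 bases upstream of the start. In the second they mark, from left to right, the Pu.1 core 166 bases upstream, the antioxidant response element core TGACNNNGC on the opposite strand 82 bases upstream, and 2 metal response element cores on the opposite strand, 43 bases upstream and 30 bases downstream. The marked matches do not overlap one another. The windows are chr1:74374953-74375252 and chr1:191906531-191906830, both on the plus strand:
Slc11a1: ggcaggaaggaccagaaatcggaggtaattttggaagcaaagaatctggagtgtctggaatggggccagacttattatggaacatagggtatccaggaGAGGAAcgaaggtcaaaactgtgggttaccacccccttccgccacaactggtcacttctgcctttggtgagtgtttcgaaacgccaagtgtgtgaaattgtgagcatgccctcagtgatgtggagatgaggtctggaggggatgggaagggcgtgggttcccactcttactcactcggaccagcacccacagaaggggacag
Slc30a1: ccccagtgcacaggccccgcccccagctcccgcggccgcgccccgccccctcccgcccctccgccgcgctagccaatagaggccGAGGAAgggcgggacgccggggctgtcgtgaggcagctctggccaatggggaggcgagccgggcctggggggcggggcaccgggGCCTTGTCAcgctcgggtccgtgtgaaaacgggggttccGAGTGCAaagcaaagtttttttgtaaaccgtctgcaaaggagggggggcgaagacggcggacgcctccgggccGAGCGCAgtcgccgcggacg
The antioxidant core, which the stress factor Nrf2 recognises, was in 8 of the 31 windows (25.8%), in 12.4% of all windows and in 14.4% of those of detected genes.

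By design the deletion of Mir137 is directed at microglia, and its extent in microglia or in the other cell types present was not measured here. The 3′ untranslated regions were therefore read for matches to the mature product of Mir137, printed with the seed (bases 2 to 8) in capitals:
mmu-miR-137-3p: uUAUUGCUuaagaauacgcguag
It is encoded at chr3:118433901-118433923 on the plus strand (RefSeq, GRCm38.p6). The 7-base match to the seed, AGCAATA, was in the longest annotated 3′ untranslated region of 3 of the 32 genes (9.38%) and of 9.70% of 20804 genes, with median lengths of 1451 and 967 bases. The 3 genes were Slc30a4, Slc39a11 and Slc39a5, the last of which had 0 counts. The matches of the 2 detected genes are shown with the seed match in capitals:
Slc30a4: tacagacttgagAGCAATAaatgtaaacct
Slc39a11: tgctgatgttagAGCAATAtggaaatgagg
The match of Slc30a4 lies at chr2:122685113-122685119 and that of Slc39a11 at chr11:113245781-113245787, both on the minus strand of GRCm38. Cells that keep Mir137 were not analysed here, so no response of these 2 genes to its loss was measured.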

How the data were processed

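RNA sequencing of total RNA was deposited as 1 table of estimated counts per gene and 1 table of FPKM per gene, with a column for each of 3 replicates of 1 group. The deposited estimated counts were not normalised, and the deposited FPKM values were scaled by the authors for library size and effective gene length. The tools named are STAR 2.7.9a, RSEM and DESeq2 and the builds GRCm38 and mm10, per the submitters' processing notes. For settings, gene annotation and strand, the sources used here give nothing. Without strand, reads of overlapping antisense genes cannot be told apart.

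Levels are FPKM as deposited, given as mean ± SD over libraries, and list levels are medians of log2(FPKM + 1). Rounded counts were fitted on the whole table with edgeR 4.0.16 (R 4.3.3): expression filter, TMM, dispersions with an intercept alone, and a chi-square test of homogeneity at an adjusted p of 0.05, checked on simulated counts. Coordinates are from GENCODE M21 (GRCm38), 1-based. All 32 genes are named, and of the other metal lists the 3 highest and the lowest gene, besides Tfrc, Hamp, Atp7a, Spi1, Psmc3 and Erh, which were chosen after their values were seen. The genes and lists were chosen with earlier results of these data known. Alternatives were other detection thresholds, CPM, TPM, a pseudocount of 0.1, DESeq2 size factors (DESeq2 1.42.0), no filter, and leaving out each library. There were 0 columns of other samples.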

Additional observations from a re-analysis of the deposited data

How the results depend on the processing

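The number of genes detected stayed between 25 and 27 under each alternative tried, and the 3 differences between single genes kept their sign under each. The summed FPKM of the 32 genes, 750.6, was 1385 after rescaling to TPM, which multiplies every gene alike within a library. The log2 ratio of zinc entry to zinc efflux was 0.62 with TMM-normalised CPM and 0.62 per measured gene, and 1.08 to 1.13 when 1 library was left out. With CPM, a unit that is not divided by length, the family medians were 6.90 (Slc11), 7.90 (Slc40), 6.48 (Slc31), 5.28 (Slc30), 5.23 (Slc39) and 4.38 (Slc41). A pseudocount of 0.1 gave 5.25 for Slc31 and 3.61 for Slc39. Detected genes alone gave 4.61 for Slc30 and 4.08 for Slc39, since undetected genes then leave the median, and there and with CPM the order of these 2 families turned. The number of genes differing between libraries was 4 to 8 with 1 library left out, a fit with fewer samples, in which the share over all genes was 18.6 to 28.2% in place of 41.4%. No paired analysis was possible because the labels give 1 group. Depth limits Slc30a2, Slc30a3, Slc30a8, Slc39a2 and Slc39a5, whose counts were at or near 0.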

Other observations

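Slc39a13 lies next to Spi1, the gene of Pu.1 itself. On chromosome 2 of GRCm38, 11.97 kb separate Slc39a13 (91061791 to 91070417, minus strand) from Spi1 (91082390 to 91115756). The start of Slc39a13, not its end, faces Spi1. The levels of the 2 neighbours were far apart, 8.51 ± 0.87 FPKM for Slc39a13 and 187 ± 4.65 for Spi1 (SD, n = 3).

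Annotated exons of 9 of the 32 genes overlap those of another gene, and 7 of these share bases with a gene on the opposite strand. The same share over all annotated genes was not computed, so these counts are no result about the transporters. Of the exon bases of Slc39a13, 4.42% overlap the proteasome gene Psmc3, at 71.88 FPKM, and of those of Slc39a9, 4.52% overlap Erh, at 89.27 FPKM. The widest overlap was that of Slc39a7, 80.7% of whose exon bases are shared with Gm20427 on the same strand, followed by Slc30a7 with 10.5% shared with the pseudogene Gm6649 on the opposite strand, and both had whole counts. Slc30a1 and Slc30a10, with 8.92 and 9.13% shared, were the 2 transporter genes with counts that were not whole. The other overlapping genes, Slc11a2, Slc30a4, Slc39a2, Slc39a9 and Slc39a13, had whole counts. Gm20427, Gm6649, Gm43106 and 4930417H01Rik, which overlap Slc39a7, Slc30a7 and Slc30a4, were not among the genes tabulated. Whole counts of Slc39a7, Slc30a7 and Slc30a4 therefore do not show that they took no reads of those genes. The part of these overlaps in the levels was not tested.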
